A study of Homo sapiens with 3 samples.

Results

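The 38 genes described here encode the enzymes of glycolysis, the enzymes that decide what becomes of pyruvate, and the regulators and targets of the response to low oxygen. They were taken from the deposited table by gene symbol, from a fixed list of glycolysis and hypoxia genes, and all 38 were among its 31907 rows. Of these, 34 averaged at least 1 TPM (an abundance scaled for transcript length and library total) over the 3 libraries and could be compared. CA9, ENO2, BNIP3 and PDK4 lay below that level.

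All cells were NCI-N87, a long-established gastric cancer line of human origin, and all were transfected with Lipofectamine 2000. In the knockdown libraries the cells received siRNA1 or siRNA2, different reagents against FOXP4, a forkhead transcription factor. The control library, labelled WT, received a scrambled siRNA. Each siRNA has 1 library, so the control has no replicate, and the labels do not say whether cultures were separate. Any p-value therefore rests on the spread between the siRNA1 and siRNA2 libraries. Those libraries differ in reagent, and their spread may also be technical. FOXP4 itself measured 51.6 TPM with siRNA1 and 36.7 TPM with siRNA2, against 93.9 TPM with the scrambled siRNA. Its log2 folds were -0.85 and -1.33, or -0.20 and -1.01 once the trend of folds over GC content was removed, and it did not pass limma (adjusted p = 0.9999).

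Glycolysis turns glucose into pyruvate in the cytosol. Hexokinases trap glucose in the cell as glucose phosphate, phosphofructokinase sets the pace of the pathway, and the payoff steps from GAPDH to pyruvate kinase return ATP and NADH. Lactate dehydrogenase and pyruvate dehydrogenase then compete for pyruvate. When oxygen is low, the HIF alpha proteins escape hydroxylation by EGLN enzymes, pair with ARNT and switch on many glycolysis genes together with VEGFA, CA9 and others. Tumour cells, gastric ones among them, often run glycolysis at a high rate in the presence of oxygen.

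Depth was close in the 3 libraries, at an estimated 18600000 reads with siRNA1, 19100000 with siRNA2 and 18400000 with the scrambled siRNA. Keratins KRT8, KRT18 and KRT19 and EPCAM, markers of simple epithelium, lay between 198.5 and 1930 TPM in every library. CDH1, which encodes E-cadherin, was low for an epithelial line, at 5.86, 11.6 and 4.16 TPM. NCI-N87 is known for ERBB2 amplification, yet ERBB2 measured 58.9, 63.9 and 89.8 TPM and ranked 3354, 2827 and 2136 among the 14429 genes tested. The identity of the line was not tested. Of the defining markers of other cell types, CD68 (macrophages), COL1A2 and DCN (fibroblasts) and CDH5 (endothelium) were listed at 0 and PTPRC (leukocytes) reached 0.0516 TPM. COL1A1 lay between 6.42 and 22.3 TPM, CSF1R between 2.26 and 4.33 TPM and LYZ, which gastric gland cells also make, between 3325 and 4401 TPM. The share of TPM taken by the 13 mitochondrially encoded mRNAs was 8.05% with siRNA1 and 1.41% with siRNA2, against 5.15% with the scrambled siRNA. Over all 14429 genes the median log2 fold was 0.03 with siRNA1 and -0.24 with siRNA2. With siRNA1 the fold went down with the GC content of a gene (Spearman correlation -0.61 over 12722 genes, -0.10 with siRNA2), so folds with that trend removed are given for the genes where they differ most.

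Hexokinases carry out the entry step, and HKDC1 stood out among all 38 genes. HKDC1 (hexokinase domain containing, ENSG00000156510.12, chromosome 10, 69220303 to 69267559, plus strand, GRCh38) is the most recently described member of the family and is known from gut, kidney and liver epithelium. HK1 is the form found in nearly every tissue. HK2 is the inducible form of muscle and fat that many tumours express. HKDC1 and HK1 are neighbours on the same strand, with 2424 bases between the end of HKDC1 and the start of HK1 (ENSG00000156515.23, chromosome 10, 69269984 to 69401884). HK2 (ENSG00000159399.9) lies on chromosome 2, 74833981 to 74893359, plus strand.

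The promoter windows of HKDC1 and HK2 are shown because these are the hexokinases that were highest over the scrambled library with siRNA2. They are RefSeq sequences on GRCh38.p14, from 250 bases before to 50 bases after a transcript start, printed 5′ to 3′ on the plus strand. Capitals mark ACGTG or GCGTG on either strand (CACGT and CACGC when read on the opposite strand), the core to which HIF is known to bind.
HKDC1 (chr10:69220082-69220381): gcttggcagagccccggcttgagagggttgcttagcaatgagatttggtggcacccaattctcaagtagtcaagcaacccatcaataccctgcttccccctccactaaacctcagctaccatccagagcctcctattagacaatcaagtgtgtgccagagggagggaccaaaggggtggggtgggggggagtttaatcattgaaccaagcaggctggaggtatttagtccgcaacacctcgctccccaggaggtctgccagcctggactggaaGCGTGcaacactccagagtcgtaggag
HK2, upstream start (chr2:74833877-74834176): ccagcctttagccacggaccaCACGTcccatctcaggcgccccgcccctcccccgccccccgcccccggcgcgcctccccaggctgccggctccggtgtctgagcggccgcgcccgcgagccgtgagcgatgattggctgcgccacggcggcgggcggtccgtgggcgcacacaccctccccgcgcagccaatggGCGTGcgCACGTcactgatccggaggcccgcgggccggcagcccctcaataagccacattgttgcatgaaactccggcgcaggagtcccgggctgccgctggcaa
HK2, downstream start (chr2:74834920-74835219): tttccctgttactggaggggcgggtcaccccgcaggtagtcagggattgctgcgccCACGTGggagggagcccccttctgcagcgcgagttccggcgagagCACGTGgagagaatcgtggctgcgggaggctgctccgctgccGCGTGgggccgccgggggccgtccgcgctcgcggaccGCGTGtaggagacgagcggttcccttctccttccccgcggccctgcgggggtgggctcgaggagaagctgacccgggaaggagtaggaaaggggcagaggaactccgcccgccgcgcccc

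The HKDC1 window holds 1 such core, and the HK2 windows hold 3 and 6. The downstream HK2 window includes CACGTG, also the E-box bound by MYC and related factors, 2 times, and each was counted once on each strand. The windows differ in base composition, with a GC content of 55.3% for HKDC1 against 74.3% and 71.7% for HK2. Of 35116 RefSeq promoter windows, 48.4% hold ACGTG or GCGTG and 21.4% hold ACGTG. RefSeq gave 58 windows for 34 of the 38 genes. Of those windows 39 (67.2%) hold either form and 22 (37.9%) hold ACGTG, in a list chosen to hold many known HIF targets. The forkhead core TGTTTAC was found in 0 of the 58 windows, against 3.4% of all windows. The AP-1 site TGANTCA was found in 5 of the 58 (8.6%), against 7.7% of all windows. Both strands were read for each, and neither of these motifs contains the hypoxia core. A match describes the letters and is not a bound site.

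HKDC1 measured 21.4 TPM with siRNA1 and 243.5 TPM with siRNA2, against 2.59 TPM with the scrambled siRNA. Both knockdown libraries lay far above the control, and the siRNA2 library lay far above the siRNA1 library. The TPM ratios were 8.25 with siRNA1 and 93.9 with siRNA2. On the scale of log2(TPM + 1), which understates folds of low genes, siRNA1 gave a log2 fold of 2.64 and siRNA2 one of 6.09, averaging 4.36 ± 2.44 (SD, n = 2). These levels rested on about 412 reads with siRNA1, 4766 with siRNA2 and 52 with the scrambled siRNA. Exact Poisson 95% intervals, which cover counting error only, ran from 19.4 to 23.6 TPM, from 237 to 250.0 TPM and from 1.95 to 3.43 TPM, and did not overlap. Among the 14429 genes tested the HKDC1 fold ranked 60 from the top with siRNA1 and 3 with siRNA2. It ranked 21 by the smaller of both folds. In bulk RNA, more cells that make HKDC1 and more HKDC1 RNA per cell cannot be told apart. Overlapping antisense transcripts are annotated at HKDC1, and the labels do not state that strand was used in counting.

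The test across genes was limma, which set both knockdown libraries against the scrambled library and took its 1 residual degree of freedom from the spread between the siRNAs. In limma HKDC1 had an unadjusted p = 0.0228 and an adjusted p = 0.9999, so it did not pass. When testing was limited to genes averaging 10 TPM or more it did pass. There all genes shared 1 variance trend, and the wide spread of HKDC1 between the siRNAs did not enter. HKDC1 also met that average only through the knockdown libraries, having 2.59 TPM with the scrambled siRNA. The filter thus selected on the difference under test, and passing it there adds no support. HKDC1 also passed among protein-coding genes, a setting chosen after seeing the data. Its SD of 2.44 between the siRNAs can have weighed little there. Over its 9 alternatives with a test the adjusted p of HKDC1 ran from 1.61e-09 to 0.99997, and its direction was the same in each. The fold was as large with the GC trend removed (2.82 and 6.38) and with mitochondrially encoded genes left out (2.72 and 6.05).

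HK2 measured 116 TPM with siRNA1 and 234 TPM with siRNA2, against 100.1 TPM with the scrambled siRNA. Its log2 fold was 0.21 with siRNA1 and 1.22 with siRNA2, averaging 0.715 ± 0.711 (SD, n = 2), so siRNA2 stood above and siRNA1 near the control. HK1 measured 41.5 TPM with siRNA1 and 68.0 TPM with siRNA2, against 43.9 TPM with the scrambled siRNA. Its log2 folds were -0.08 and 0.62, and the control lay between both knockdown libraries, except that with the GC trend removed the siRNA1 fold was 0.09. In limma neither passed (adjusted p = 0.9999 for each). The genes around this pair on chromosome 10 did not share the HKDC1 levels. SUPV3L1, an RNA helicase gene upstream, measured 57.4 and 51.95 TPM against 41.3 TPM, and VPS26A measured 174 and 181 TPM against 132 TPM. TACR2, the nearest annotated protein-coding gene downstream of HK1, measured 2.98 and 2.71 TPM against 2.52 TPM.

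Because TPM is per length, the 3 hexokinases can be compared within a library, and such ratios do not depend on the library total. HKDC1 made up 12% of their summed TPM with siRNA1 and 44.6% with siRNA2, against 1.77% with the scrambled siRNA. HK2 made up 64.8% and 42.9%, against 68.3%, and HK1 made up 23.2% and 12.5%, against 30.0%. The HKDC1 to HK1 ratio of TPM was 0.515 with siRNA1 and 3.58 with siRNA2, against 0.0590 with the scrambled siRNA. The HKDC1 to HK2 ratio was 0.184 and 1.04, against 0.0259. HKDC1 was thus the least abundant of the 3 in the scrambled and siRNA1 libraries and level with HK2 in the siRNA2 library. The sum of the 3 was 179 TPM and 545.5 TPM, against 147 TPM, ratios of 1.22 and 3.72. HK3, a hexokinase gene known from white blood cells, had at most 2 estimated reads in any library.

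**Figure D1:**
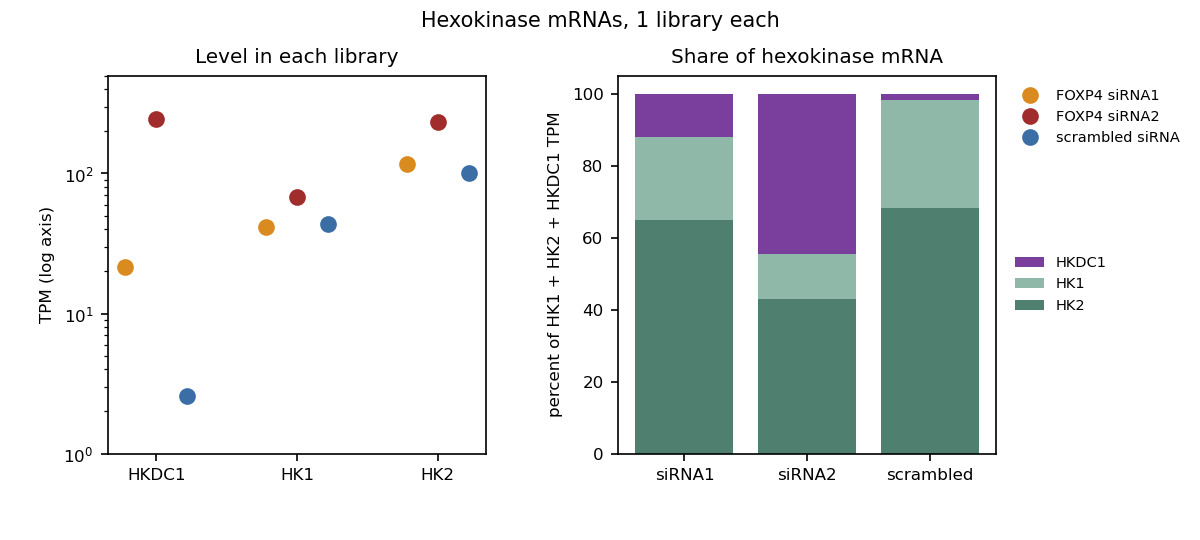
Left, TPM (log axis) of HKDC1, HK1 and HK2 in each library, 1 point per library. Right, the share of their summed TPM taken by each gene. HKDC1 takes 12% with siRNA1 and 44.6% with siRNA2, against 1.77% with the scrambled siRNA.

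The preparatory steps use ATP to make triose phosphates, and 4 of their 7 genes were lower than the control with both siRNAs, where 38.1% of all genes were. GPI, which interconverts glucose and fructose phosphates, measured 177 TPM with siRNA1 and 130.0 TPM with siRNA2, against 279 TPM with the scrambled siRNA. PFKL, the liver-type subunit of phosphofructokinase, measured 58.0 and 49.8 TPM, against 117 TPM. These genes were low in both knockdown libraries, with mean log2 folds of -0.88 ± 0.31 for GPI and -1.11 ± 0.15 for PFKL (SD, n = 2). PFKL is rich in GC, at 64.1%. With the GC trend removed its folds were -0.27 with siRNA1 and -0.885 with siRNA2, in place of -0.998 and -1.21. PFKP, the platelet-type subunit and the most abundant here, measured 132 and 215 TPM, against 204 TPM, and PFKM, the muscle-type subunit, 42.1 and 45.2 TPM, against 41.5 TPM. The log2 fold of PFKM with siRNA1 was 0.02 as deposited and -0.01 with quantile normalization. The subunits thus differed as deposited, PFKP lying below the control with siRNA1 and near it with siRNA2. The log2 folds of PFKP were -0.62 and 0.07 as deposited, and -0.25 and 0.38 with the GC trend removed. With median-of-ratios rescaling its siRNA2 fold was 0.35. ALDOA, the main aldolase outside liver and brain, measured 452.5 and 517.5 TPM, against 759 TPM. TPI1, which equilibrates the triose phosphates, measured 624 and 515.5 TPM, against 811 TPM, and with the GC trend removed its siRNA1 log2 fold was -0.015 in place of -0.38. ALDOC, the brain-type aldolase, stood at 13.05 and 7.002 TPM, against 12.3 TPM. With the GC trend removed its log2 folds were 0.41 and -0.42, in place of 0.08 and -0.74.

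PFKFB enzymes make and break the sugar bisphosphate that activates phosphofructokinase. PFKFB3, the form with the highest kinase activity, measured 31.7 TPM with siRNA1 and 49.7 TPM with siRNA2, against 34.1 TPM with the scrambled siRNA. PFKFB2, a form known from heart, measured 35.8 and 27.03 TPM, against 33.3 TPM. PFKFB4, a form first known from testis and induced by hypoxia, measured 2.55 and 1.48 TPM, against 4.35 TPM, from about 71, 42 and 124 reads. PFKFB3 was thus high with siRNA2 alone and PFKFB4 low with both. With the GC trend removed the siRNA1 log2 fold of PFKFB4 was -0.25 in place of -0.59. In that setting the siRNA1 folds of PFKFB2 and PFKFB3 turned sign, to -0.17 and 0.19. PFKFB3 was 12.4 times as abundant as PFKFB4 with siRNA1 and 33.5 times with siRNA2, against 7.84 times with the scrambled siRNA.

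The payoff genes are among the most abundant mRNAs of these cells, and all 5 that could be compared were lower with both siRNAs, or 4 with the GC trend removed. Of all genes, 38.1% were lower with both as deposited and 34.3% with that trend removed. GAPDH, which makes the NADH of the pathway, measured 1478 TPM with siRNA1 and 842 TPM with siRNA2, against 1981 TPM with the scrambled siRNA. ENO1, the ubiquitous enolase, measured 1229 and 686 TPM, against 1554 TPM. For both genes the siRNA2 library was the lowest, with log2 folds of -1.23 and -1.18, and the siRNA1 library lay nearer the control, with -0.42 and -0.34. PGK1, the kinase that makes the first ATP of this phase, measured 312 and 186 TPM, against 327 TPM. PGAM1, which moves the phosphate before enolase acts, measured 665 and 455 TPM, against 797 TPM. PKM, pyruvate kinase of muscle and tumours, measured 927 and 885 TPM, against 1215 TPM. ENO2, the neuronal enolase, measured 0.205 and 0.151 TPM, against 0.298 TPM, from about 4, 3 and 6 reads.

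As a group, the 12 measured genes of the preparatory and payoff steps had median log2 folds of -0.38 with siRNA1 and -0.77 with siRNA2, beside medians of 0.03 and -0.24 over all genes tested. Of these 12, 9 were lower with both siRNAs and 1 was higher with both, beside 38.1% and 24.5% of all genes. Together they took 0.612% of all TPM with siRNA1 and 0.454% with siRNA2, against 0.811% with the scrambled siRNA. Rescaling by the median of ratios took the median of all genes with siRNA2 to 0.00, and the medians of the 12 genes were then -0.40 and -0.51. With the GC trend removed they were -0.19 and -0.47, and 8 were lower with both. In that setting the siRNA1 fold of GAPDH was 0.01. None of the 12 passed limma, where each had an adjusted p = 0.9999. Several of these genes have processed pseudogenes, and reads could be split between copies. Rows named as pseudogenes of GAPDH held 23.3 and 20.6 TPM, against 47.8 TPM, or 1.6% and 2.4%, against 2.4%, of the sum with GAPDH itself.

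**Figure D2:**
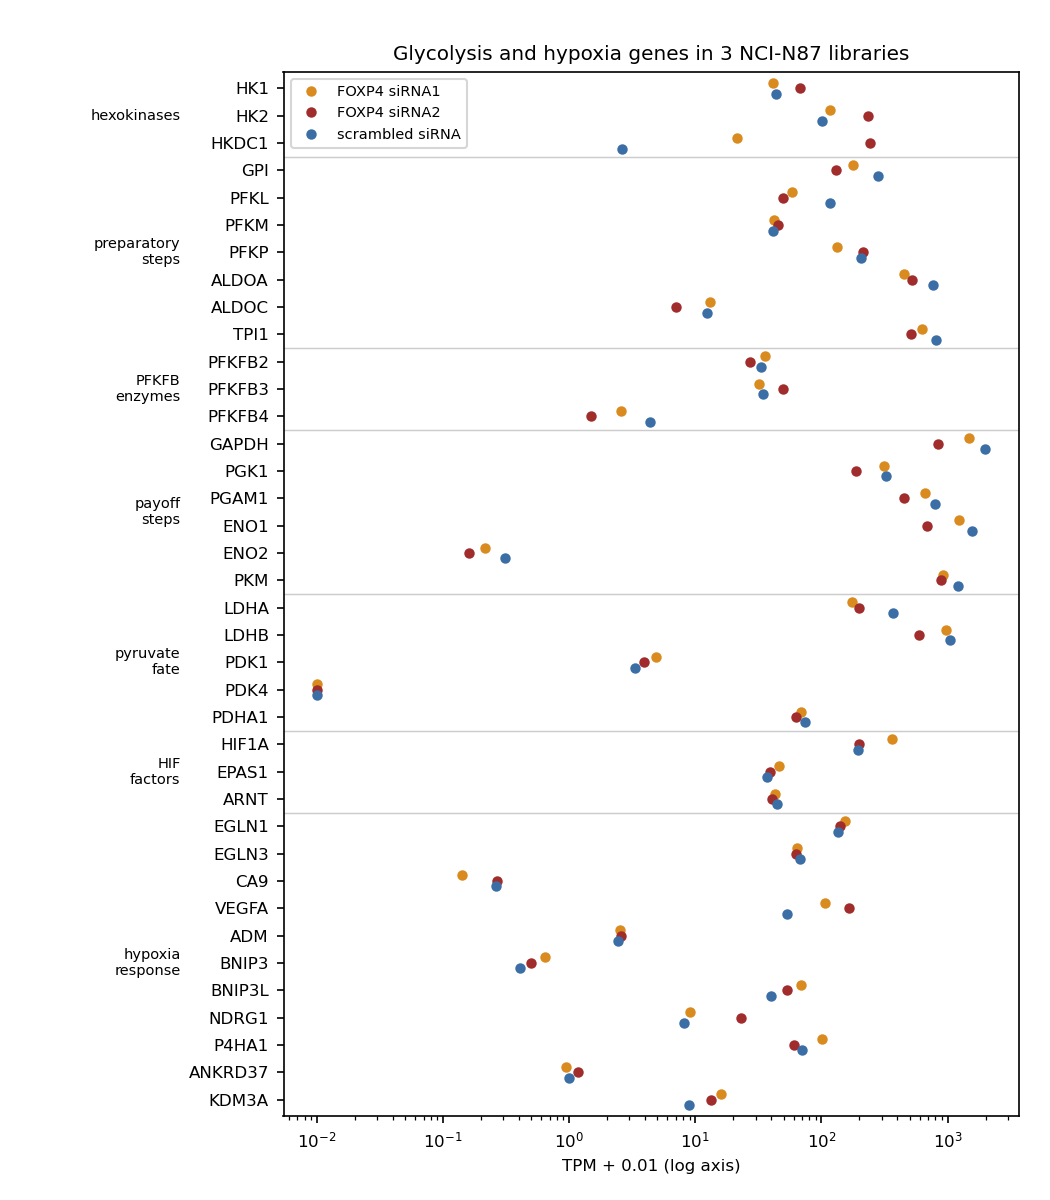
TPM plus 0.01 (log axis) of all 38 genes by step of the pathway, 1 point per library. The payoff genes other than ENO2 lie at the right of the plot, each with the scrambled library highest, and HKDC1 is the gene whose 3 libraries lie farthest apart.

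Pyruvate goes to lactate or into the mitochondrion. LDHA, the subunit that favours lactate formation, measured 174 TPM with siRNA1 and 197 TPM with siRNA2, against 370 TPM with the scrambled siRNA, a mean log2 fold of -0.99 ± 0.12 (SD, n = 2). LDHB, the subunit that favours lactate use, measured 965 and 593 TPM, against 1049 TPM. LDHA was low with both siRNAs, with log2 folds of -1.08 and -0.91 as deposited, -1.09 and -0.63 with median-of-ratios rescaling and -1.32 and -0.71 with the GC trend removed. LDHB was low mainly with siRNA2, its siRNA1 fold being 0.00 with quantile normalization. LDHA made up 15.3% of the summed lactate dehydrogenase TPM with siRNA1 and 24.9% with siRNA2, against 26.1% with the scrambled siRNA. In limma LDHA had an unadjusted p = 0.078 and an adjusted p = 0.9999. PDHA1, the catalytic alpha subunit of pyruvate dehydrogenase, measured 69.1 and 62.3 TPM, against 73.8 TPM. PDK1, a kinase that switches pyruvate dehydrogenase off, measured 4.87 and 3.89 TPM, against 3.34 TPM. Its siRNA1 log2 fold was 0.435 as deposited and 0.02 with the GC trend removed. PDK4, a starvation-induced kinase of the same kind, was listed at 0 in all 3 libraries.

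The other genes that handle pyruvate gave 1 gene over 2-fold with both siRNAs among 14 measured. Over the whole table, 2.52% of genes stood that far above the control with both siRNAs, and 2.38% that far below. PDP1, the phosphatase that switches pyruvate dehydrogenase on and so opposes the PDK kinases, measured 67.4 TPM with siRNA1 and 126 TPM with siRNA2, against 27.7 TPM with the scrambled siRNA. It did not pass limma (adjusted p = 0.9999), and with the GC trend removed its siRNA1 log2 fold was 0.88, under 2-fold. Of the 14, 1 was higher and 5 were lower with both siRNAs, beside 24.5% and 38.1% of all genes, and medians were 0.14 and -0.21. With the GC trend removed 6 were higher and 5 lower with both, beside 33.9% and 34.3% of all genes. The medians were then 0.04 and -0.03. PDK2 measured 8.61 and 5.51 TPM, against 11.4 TPM. MPC1, a subunit of the mitochondrial pyruvate carrier, measured 32.5 and 18.15 TPM, against 35.04 TPM. PCK2, which makes phosphoenolpyruvate in the mitochondrion, measured 255.5 and 346.5 TPM, against 373.0 TPM. With the GC trend removed PDK2 turned to 0.11 with siRNA1, and PCK2 to 0.04 and 0.21, on the log2 scale. In a list of further glycolysis genes and glucose or lactate transporters, 17 of 28 were measured, 2 were higher and 6 lower with both siRNAs, beside 24.5% and 38.1% of all genes, and 0 passed limma or were 2-fold from the control with both. With the GC trend removed 5 were higher and 6 lower with both, beside 33.9% and 34.3% of all genes. As deposited, the higher genes were SLC2A3 and SLC16A4. SLC2A3, a high-affinity glucose transporter, measured 143 and 165 TPM, against 82.99 TPM. SLC16A4, of the monocarboxylate transporter family, measured 84.8 and 117 TPM, against 48.2 TPM. SLC2A1, the main glucose transporter of tumour cells, measured 716.5 and 1041 TPM, against 742 TPM. Among the lower genes were PGAM5, a mitochondrial phosphatase, at 57.4 and 36.5 TPM, against 82.6 TPM, and LDHD, which oxidizes D-lactate, at 4.65 and 4.12 TPM, against 8.465 TPM. The siRNA1 log2 fold of LDHD was -0.74 as deposited and -0.07 with the GC trend removed.

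**Figure D3:**
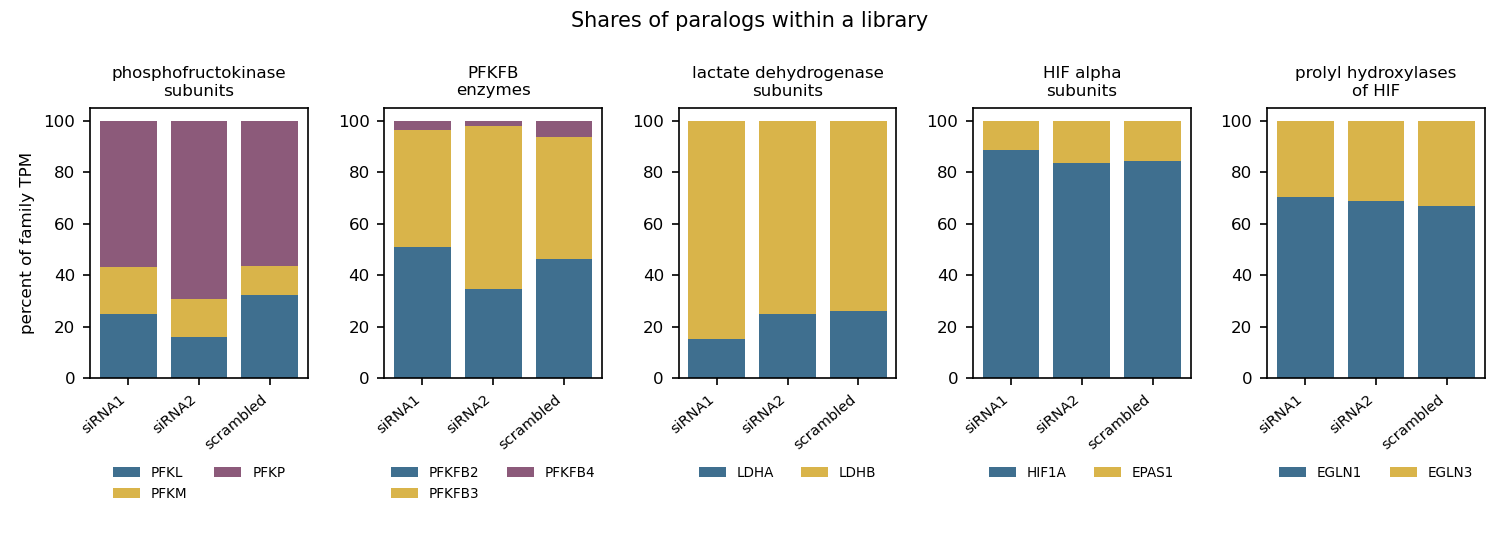
Share of the summed TPM of a family taken by each paralog, in percent, in the siRNA1, siRNA2 and scrambled libraries. The LDHA share is lowest with siRNA1 (15.3%), the PFKL share is lowest with siRNA2 (16.1%), and PFKFB3 takes the largest share of its family with siRNA2 (63.5%).

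Of the hypoxia factors, HIF1A stood well above the control with siRNA1 and near it with siRNA2. HIF1A, the oxygen-labile alpha subunit, measured 359.7 TPM with siRNA1 and 199 TPM with siRNA2, against 196 TPM with the scrambled siRNA. HIF1A is poor in GC, at 36.4%, and with the GC trend removed its siRNA1 log2 fold was 0.36 in place of 0.88. EPAS1, the other alpha subunit, measured 45.8 and 38.8 TPM, against 36.7 TPM. ARNT, the shared partner, measured 42.7 and 40.7 TPM, against 44.2 TPM, and its sign turned with at least 1 siRNA under each rescaling tried. The hydroxylases that mark HIF alpha for degradation differed little between libraries, and the signs of their folds turned under some rescalings. EGLN1 measured 152 and 140.4 TPM, against 136 TPM, and EGLN3, itself a HIF target, 64.1 and 63.3 TPM, against 67.9 TPM. HIF activity is set mainly at the protein level, which these data do not measure.

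Among the hypoxia response genes, VEGFA stood highest over the control. VEGFA, the main growth factor of blood vessels, measured 106.5 TPM with siRNA1 and 166 TPM with siRNA2, against 53.2 TPM with the scrambled siRNA. Its log2 fold was 0.99 with siRNA1 and 1.62 with siRNA2, averaging 1.30 ± 0.45 (SD, n = 2), and both knockdown libraries lay above the control. In limma VEGFA had an unadjusted p = 0.0455 and an adjusted p = 0.9999. NDRG1, a stress-responsive gene of differentiation, measured 8.985 and 22.8 TPM, against 8.07 TPM, and was high with siRNA2 alone. BNIP3L, a mitophagy receptor, measured 68.8 and 53.5 TPM, against 40.1 TPM, and KDM3A, a histone demethylase, 16 and 13.25 TPM, against 8.96 TPM. P4HA1, a collagen prolyl hydroxylase, measured 100.2 and 60.1 TPM, against 69.7 TPM. With the GC trend removed the siRNA1 log2 folds were smaller for these genes, at 0.32 in place of 0.76 for BNIP3L, 0.46 in place of 0.77 for KDM3A and 0.14 in place of 0.52 for P4HA1.

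Several genes often used as readouts of hypoxia were low and, as deposited, close in the 3 libraries. CA9, a carbonic anhydrase and classical HIF target, was listed at 0.131 and 0.258 TPM, against 0.254 TPM, on at most 2 estimated reads a library. ADM, a vasodilator peptide, measured 2.50 TPM with siRNA1 and 2.54 TPM with siRNA2, against 2.42 TPM with the scrambled siRNA. With the GC trend removed the log2 folds of ADM were 0.45 and 0.36, in place of 0.03 and 0.05. ANKRD37, a direct HIF target, measured 0.936 and 1.17 TPM, against 0.988 TPM, from about 11, 14 and 12 reads. For CA9 and ANKRD37 the counting intervals of the libraries overlapped, so no difference was detectable at this depth. BNIP3, a mitophagy receptor related to BNIP3L, measured 0.634 and 0.490 TPM, against 0.395 TPM. BNIP3 values are uncertain, because its 9 pseudogene rows held 79% and 90% of the summed TPM, against 92%.

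Of 31 further hypoxia targets 21 were measured, and their median log2 fold was 0.09 for siRNA1 and -0.08 for siRNA2. BHLHE40, a transcriptional repressor, measured 273 and 418 TPM, against 76.8 TPM, and did not pass limma (adjusted p = 0.9999). It did pass when testing was limited to genes averaging 10 TPM or more (limma adjusted p = 0.0213) or to protein-coding genes (limma adjusted p = 0.0208). In the 10 TPM setting all genes shared 1 variance trend, so the spread of BHLHE40 between the siRNAs did not enter. The protein-coding setting was chosen after seeing the data. The spread between the siRNAs can have weighed little there too, as HKDC1 passed despite an SD of 2.44. Of the 21, 2 were at least 2-fold higher with both siRNAs, BHLHE40 among them, and 0 were 2-fold lower, beside 2.52% and 2.38% of all genes. By any amount, 7 were higher and 8 lower with both, beside 24.5% and 38.1% of all genes. With the GC trend removed 12 were higher and 7 lower with both, beside 33.9% and 34.3% of all genes. The medians were then 0.16 and 0.22. Limma called 0 of the 21. JMJD6, a nuclear hydroxylase, measured 20.96 and 33.7 TPM, against 14.5 TPM, and NARF, a nuclear lamin-binding protein, 13.15 and 10.3 TPM, against 20.97 TPM. Of 10 measured hypoxia regulators, 5 were higher and 2 lower with both, beside 24.5% and 38.1% of all genes, and 0 passed limma. EP300, the coactivator that HIF recruits, measured 26.1 and 41.8 TPM, against 13.05 TPM, and its paralog CREBBP 46.8 and 68.3 TPM, against 31.7 TPM. RBX1, a subunit of the ligase that degrades HIF alpha, measured 46.2 and 41.6 TPM, against 84.1 TPM. ELOB (TCEB2 in the table), another subunit of that ligase, measured 309.5 and 485 TPM, against 556 TPM, and its siRNA2 log2 fold of -0.20 turned to 0.11 with the GC trend removed.

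Counted over the 34 measured genes, limma called 0, and it called 0 of 14429 genes overall (0%). At an unadjusted p under 0.05 it had 428 genes, among them HKDC1 and VEGFA. Limited to an average of 10 TPM or more, limma called HKDC1 alone of 30 as higher and 0 as lower, where it called 0.92% of all genes higher and 0.0986% lower. HKDC1 met that average only through the knockdown libraries, having 2.59 TPM with the scrambled siRNA. It also passed among protein-coding genes, a setting chosen after seeing the data. By size, 1 of 34 was at least 2-fold higher with both siRNAs (HKDC1) and 0 were 2-fold lower, where 2.52% and 2.38% of all genes met those rules. With siRNA1 alone, 1 was 2-fold higher (HKDC1) and 1 lower (LDHA), beside 5.27% and 6.0% of all genes. With siRNA2 alone, 4 were 2-fold higher (HK2, HKDC1, VEGFA and NDRG1) and 5 lower (GPI, PFKL, PFKFB4, GAPDH and ENO1), beside 6.88% and 13.2% of all genes. By any amount, 12 of 34 (35.3%) were higher and 15 (44.1%) lower with both, beside 24.5% and 38.1% of all genes. With the GC trend removed 13 were higher and 13 lower with both, beside 33.9% and 34.3% of all genes. The siRNAs share the scrambled library, so their agreement in sign is not independent. The share 2-fold higher with both, 1 of 34 or 2.94%, lay near the background of 2.52%, and the other differences from the background were not tested. The median over the 34 genes was -0.06 with siRNA1 and -0.11 with siRNA2. The balance of 2-fold genes over the whole table depended on scaling, at 363 higher and 343 lower as deposited, 395 and 242 with median-of-ratios rescaling and 289 and 121 with the GC trend removed.

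**Figure D4:**
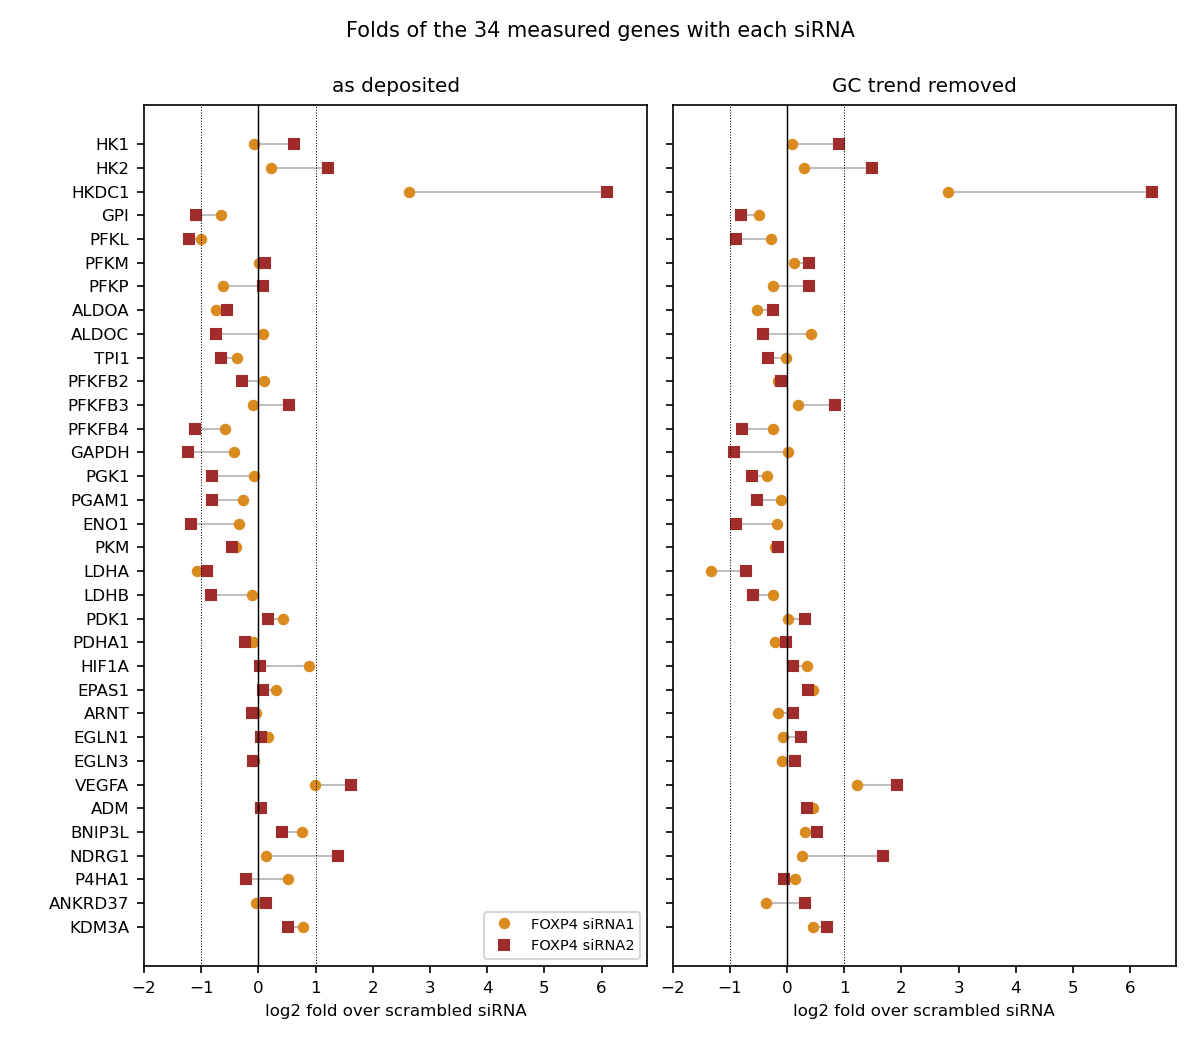
Log2 fold over the scrambled siRNA, on log2(TPM + 1), of the 34 measured genes with each siRNA, as deposited (left) and with the GC trend removed (right). Dotted lines mark 2-fold. HKDC1 lies far to the right at 2.64 with siRNA1 and 6.09 with siRNA2, and most payoff genes lie left of 0.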

How the data were processed

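Poly(A) RNA of 3 NCI-N87 libraries was sequenced, per the labels' protocols. The authors deposited 1 table of TPM values, listing gene symbols and a column for each library. The build was GRCh38, per the submitters' processing notes. Which aligner, quantifier and annotation the authors used is not given in the sources used here. Because TPM fixes each library's total, more of an abundant transcript means less of the others.

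Values were compared as log2(TPM + 1) for the 14429 genes averaging at least 1 TPM. The test was limma (version 3.58.1, R 4.3.3), its variance trended on intensity, with Benjamini-Hochberg adjustment over all of them (threshold 0.05). With 2 libraries against 1, the control's single library is taken to vary as the knockdown libraries do. A rule of size asked for 2-fold with both siRNAs. Reads were estimated from the steps of TPM times GENCODE 29 exon length, where 93.2% to 93.4% of low values fell within 0.1 of a whole number. GC content came from GENCODE 29 transcripts for 88.2% of the genes, and its trend was removed by lowess (statsmodels 0.14.6). Scripts were tested on simulated data. Of 125 listed symbols outside the 38 genes, 4 were matched by older names and 4 were not analysed here. All 38 genes and FOXP4 were named, and up to 4 of each other list by the smaller fold, though some genes this rule names are not reported here. SLC2A1, HK3, markers and chromosome neighbours stand beside them outside that rule, SLC2A1 and HK3 chosen after their values were seen. The genes and lists were chosen with earlier results of these data known.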

Additional observations from a re-analysis of the deposited data

How the results depend on the processing

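Limma called 0 genes as reported and 93 with a mean of at least 10 TPM, 11 without mitochondrially encoded genes and 92 among protein-coding genes, an alternative chosen after seeing the data. HKDC1 was 2-fold higher with both siRNAs in every setting run. VEGFA joined it, for a count of 2, without mitochondrially encoded genes, with quantile normalization and with the GC trend removed. In those settings 389 of 14593, 416 of 14429 and 289 of 12722 genes were 2-fold higher with both. PFKL was 2-fold lower with both, a count of 1, with a pseudocount of 0.1 and with quantile normalization. With quantile normalization 263 of 14429 genes were 2-fold lower with both, and for that pseudocount the number over all genes was not counted. Leaving out 1 siRNA library gave counts of 1 to 4 higher and 1 to 5 lower. Of all genes, 5.27% were 2-fold higher with siRNA1 alone and 6.88% with siRNA2 alone, and 6.0% and 13.2% were lower. The median fold over the 34 genes was small and moved with scaling. With siRNA1 it was -0.0073 without mitochondrially encoded genes. With siRNA2 it was -0.1631 at 10 TPM, 0.1649 with median-of-ratios rescaling, -0.1742 without mitochondrially encoded genes, 0.0099 with quantile normalization and 0.1115 with the GC trend removed. Mean log2 folds near 0 turned their sign for PFKFB2 (0.0331), EGLN3 (0.0405) and ARNT (0.0476) with median-of-ratios rescaling, and for PFKP (0.0661), EGLN3 (0.0325) and ANKRD37 (-0.0296) with the GC trend removed. The cause was not tested. The log2 change of the HKDC1 to HK1 ratio (mean 4.09) and of the HKDC1 to HK2 ratio (mean 3.65) moved by less than the spread between siRNAs in the settings run. No paired analysis was possible because the control has 1 library. The test had 1 residual degree of freedom, and low counts limit the genes near or under 1 TPM, such as ANKRD37 and CA9.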

Other observations

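The branches that leave glycolysis were measured beside it, in a list of 12 genes of the pentose phosphate, hexosamine and serine routes, of which 11 passed the filter on low values. TKT, of the non-oxidative part of the pentose phosphate route, measured 212 TPM with siRNA1 and 151 TPM with siRNA2, against 298 TPM with the scrambled siRNA. TALDO1, of the same part, measured 223 and 211 TPM, against 298 TPM. GFPT1, the entry enzyme of the hexosamine route, stood the other way, at 159.5 and 215 TPM, against 99.25 TPM. Of the 11, 2 were higher and 6 lower with both siRNAs, beside 24.5% and 38.1% of all genes, and 4 were higher and 4 lower with the GC trend removed. As deposited, 0 of the 11 were 2-fold from the control with both, where 2.52% of all genes stood that far above it and 2.38% below. In limma over all genes tested, 0 of the 11 passed. The medians were -0.19 and -0.15.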
